A study of Mus musculus with 19 samples.

Results

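Heart fibroblasts are the collagen-producing mesenchymal cells that were grown out of pieces of adult mouse heart. They were compared with fibroblasts grown the same way from 6 other organs (gonad, kidney, liver, lung, skin and tail). The 3 heart arrays were chosen by their label and make up 3 of the 18 arrays whose scanner output was used. The 15 other arrays were 3 each of gonad, liver and tail and 2 each of kidney, lung and skin, and a further lung sample (replicate 2) had no scanner file analysed here. All 7 groups were untreated cells from mice 8 to 10 weeks old. The labels name no strain, genotype or sex. Per the labels, tissue was chopped, digested with trypsin or collagenase and plated for 5 days in medium with 10% serum, so the cells are short-term cultures, and no sorting step is named. Nothing in the labels ties the replicates to separate mice, so p-values measure only the spread between these samples, which may be technical.

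The scanner gives 1 intensity per spot, here written as log2 signal relative to the 75th percentile of its own array, and levels are compared for 1 probe at a time between arrays. Heart replicate 1 stood apart from heart replicates 2 and 3. Its negative control spots read above the accepted range of the scanner software, as on gonad 3, kidney 1, kidney 2 and tail 2, and its median raw signal was 1100 against 80.0 and 73.0 on heart 2 and heart 3. Probes well above background made up 95.4% of the array on heart 1, 53.4% on heart 2 and 52.1% on heart 3. Across genes, which are not independent replicates, heart 2 and heart 3 correlated at r = 0.986, while heart 1 correlated at 0.808 and 0.784 with them and at 0.931 with its nearest array, kidney 2. Bright genes read lower and dim genes higher on heart 1, so list counts that moved by over 1.5 times when that array was left out are given both ways.

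The labelled cell type was checked on its markers. All 19 general fibroblast genes were well above background on all 3 heart arrays, and 2 were called higher in heart, against 9 without heart 1. Col1a1, a chain of collagen I, read 5.25, 7.40 and 7.50 on heart 1, 2 and 3, against 4.70 to 7.39 on the other arrays. Col1a2, the partner chain, read 7.10, 9.55 and 9.56, against 6.07 to 9.59. Vim, the intermediate filament of mesenchymal cells, read 5.25, 7.76 and 7.94, against 4.71 to 7.83. In these genes heart 2 and heart 3 lay at or just beyond the brightest arrays of the other organs, and heart 1 lay lower.

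Fibroblasts of the heart are known to descend largely from the epicardium, the outer cell sheet of the heart, and to keep part of the cardiac transcription factor set, with Tcf21 as a marker of the epicardial branch. Fibroblasts from different body sites are also known to keep the Hox code, in which genes of the Hox clusters mark position along the body axis. Interferons signal through a complex that includes STAT2 and IRF9 and binds the interferon-stimulated response element (ISRE), which switches on antiviral genes. Activated fibroblasts are known to take on smooth-muscle-like contractile proteins, and gremlin 1 is a secreted protein that binds and blocks bone morphogenetic proteins (BMPs).

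For each gene the heart mean was compared with the average of the 6 organ means, in which each organ counts equally. Of 19703 genes tested, 742 were called (3.77%), which means an adjusted p under 0.05 and a log2 difference of at least 1. Of these, 270 were higher in heart (1.37% of genes tested) and 472 were lower (2.40%). The genes that stood out above were antiviral genes of the interferon response, the cardiac factors Tbx20 and Gata4, the epicardial factor Tcf21, the Wnt antagonist Frzb and the collagen Col2a1. Those that stood out below were the BMP antagonist Grem1, the peptide hormone gene Cck, the interleukin-33 receptor Il1rl1, Hox genes of the HoxA, HoxB and HoxC clusters and contractile genes such as Actg2 and Cnn1. The median difference of all genes was -0.11.

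The number of calls depended on heart replicate 1. Without it 2068 genes were called (10.5%), 1106 higher (5.61%) and 962 lower (4.88%), and these held 688 of the 742 calls, with none in the opposite direction. Counts given below for a list without heart 1 stand beside these larger shares of all genes. Without heart 2 the calls numbered 463, and without heart 3 they numbered 448, and in both cases the array that stood apart was 1 of the 2 heart arrays left. The 13 arrays without high background include no kidney array and also leave out heart 1. On them 672 genes were higher (3.41%) and 971 lower (4.93%) than the mean of the other organs left. Each of the 3 slides held 1 heart array, and the difference could be taken within a slide against the other organs on it. The calls kept their direction for 742 of 742 genes on slide 1, for 710 on slide 2, which held heart 1, and for 740 on slide 3. The genes had been called on these same arrays, so the agreement was largely set by their selection and is no separate check.

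A stricter question is which genes differed from every single organ. Of the genes tested, 19 were higher in heart than in each of the 6 organs (0.0964%) and 40 were lower than in each (0.203%). The 19 included Tcf21, Frzb, Col2a1, Hsd11b1, Fndc1, Rhox5, Irf7, Oas1a, Oas2, Zbp1 and Ccl5. Among the 40 were Grem1, Cck, Il1rl1, Actg2, Cnn1, Tbx3, Cspg4, Pparg and 8 Hox genes. These counts moved more with single arrays than the total did. Without heart 1 they were 142 and 108, without heart 2 they were 4 and 24, and without heart 3 they were 4 and 21. Leaving out a kidney, lung, skin or tail array gave 7 to 15 and 17 to 28. Both kidney arrays were among the high-background arrays.

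**Figure D1:**
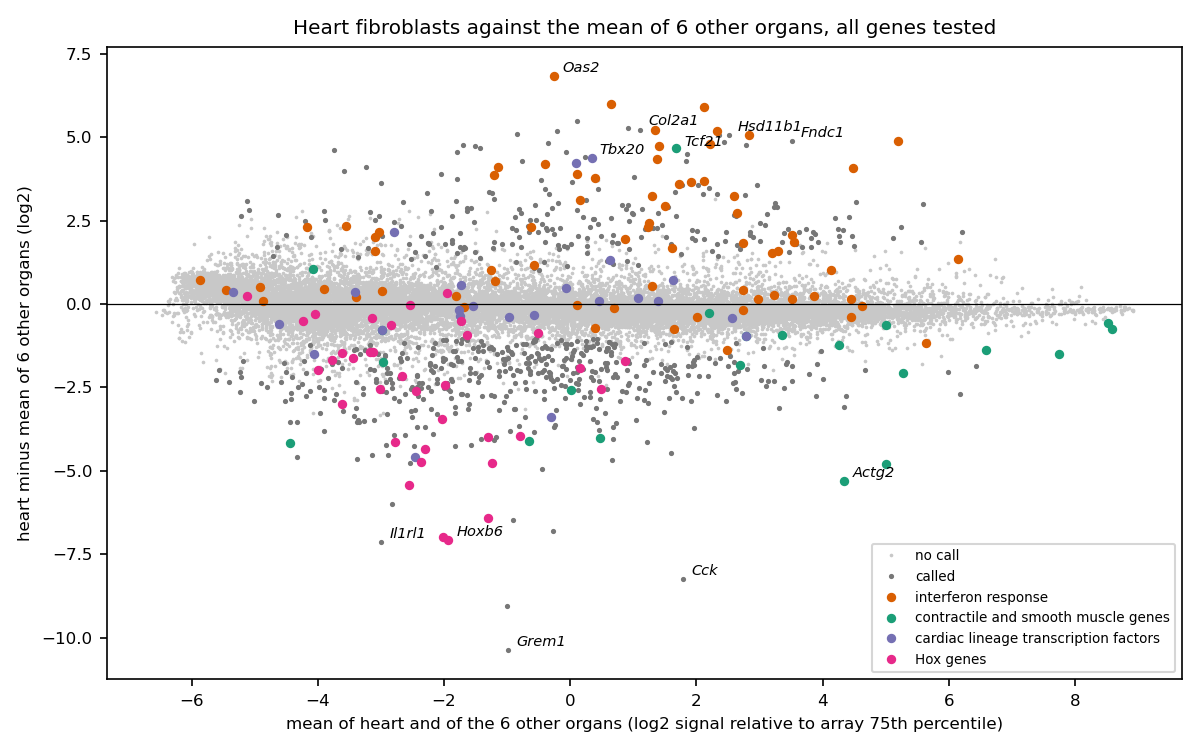
Each point is 1 of 19703 genes, with its mean log2 signal over heart and the 6 other organs on the x axis and the log2 difference of heart from those organs on the y axis; dark points are the 742 called genes and colours mark 4 gene groups. Interferon response genes form the upper part and Hox and contractile genes the lower part, with Grem1 lowest at -10.37.

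Cardiac transcription factors split. Of 24 measured members of the list, 3 were higher in heart, 2 were lower and the median difference was 0.01, against -0.11 for all genes. Tbx20, a T-box factor of heart development, read 1.57, 3.03 and 2.99 on heart 1, 2 and 3, and from -5.62 through a median of -1.98 to 0.76 on the other 15 arrays. All heart arrays lay above all others, and the high-background arrays of kidney came nearest. The difference was 4.38 ± 0.80 (SE, adjusted p = 0.0053), and 2 other probes of the gene gave 6.14 and 7.43. Tbx20 passed against gonad, liver, lung and tail, but not against kidney (1.77 ± 1.15, adjusted p = 0.189) or skin (3.73 ± 1.15, adjusted p = 0.143). Gata4, a zinc-finger factor of heart, liver and gonad mesenchyme, read 0.61, 3.00 and 2.99 in heart, and from -7.22 through -0.59 to 3.63 elsewhere. Heart overlapped with gonad and liver here, whose brightest organ mean was 2.99 in gonad, while in 2 organs the probe was not well above background on any array. Gata4 was higher in heart than the mean of the others by 4.22 ± 0.48 (adjusted p = 0.00015), at least 11.5-fold, and passed against 3 of the 6 organs. Nkx2-5, a homeobox factor of cardiac progenitors, was dim at -1.93, -1.76 and -1.44 but lay above all other arrays, whose highest was -2.18, and the difference was 2.16 ± 0.40 (adjusted p = 0.0061), at least 4.29-fold. It passed against gonad, lung, skin and tail, but not against kidney or liver.

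The factors that were lower in heart were also T-box genes. Tbx3, a repressor that patterns the conduction system and the limb, read -1.73, -1.92 and -2.34 in heart, and from -0.39 through 1.11 to 3.22 elsewhere. Its difference was -3.38 ± 0.28 (adjusted p = 1.35e-05), lower than in each of the 6 organs. Tbx1, a factor of the pharyngeal region, differed by -4.59 ± 0.63 (adjusted p = 0.000705) and was well above background on 1 of the 3 heart arrays. Among the other 19 factors, which did not pass, Tbx5 differed by -0.17 ± 0.92, Gata6 by 0.71 ± 0.37, Mef2c by 0.57 ± 0.46 and Isl1 by -0.59 ± 0.88. Without heart 1 the list held 5 higher and 3 lower members.

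Tcf21, a basic helix-loop-helix factor of epicardium-derived fibroblasts, read 2.45, 4.90 and 4.57 in heart. On the other arrays it ran from -3.55 in tail through a median of -0.47 to 1.88 in gonad. All 3 heart arrays lay above all others, and the difference was 4.60 ± 0.51 (adjusted p = 0.000129), 24.2-fold, and 5.36 without heart 1. Of 10 epicardium-derived fibroblast genes, 3 were higher and 1 was lower, against 1.37% and 2.40% of all genes tested, and the median was 1.36. The others higher were Aldh1a2, which makes retinoic acid, at 2.57 ± 0.46 (adjusted p = 0.00466), and Gfpt2, an enzyme of hexosamine synthesis, at 1.64 ± 0.41 (adjusted p = 0.0374). Aldh1a2 passed against kidney, skin and tail, but not against gonad, liver or lung, and heart differed from lung by -0.28 ± 0.66. Gfpt2 lost its call in 17 of the 32 other settings and was below the other organs within slide 2, which held heart 1. Wt1, the epicardial zinc-finger factor, was lower than the mean of the others, at -2.55 ± 0.55 (adjusted p = 0.0162). It was lower than in gonad, kidney, liver and lung, but higher than in tail by 3.64 ± 0.71 (adjusted p = 0.00736). Against skin it differed by 1.90 ± 0.80 and did not pass. On the 13 arrays without high background the list held 7 higher and 0 lower members, so the Wt1 call was lost there. Tbx18 differed by 1.31 ± 0.39, Postn by 1.57 ± 0.46 and Sema3d by 1.25 ± 0.35, without passing. Without heart 1, 7 of the 10 were higher and 2 lower, against 5.61% and 4.88% of all genes, with a median of 2.10. Without heart 2 the list kept 1 of its 4 calls, and without heart 3 it kept 2.

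**Figure D2:**
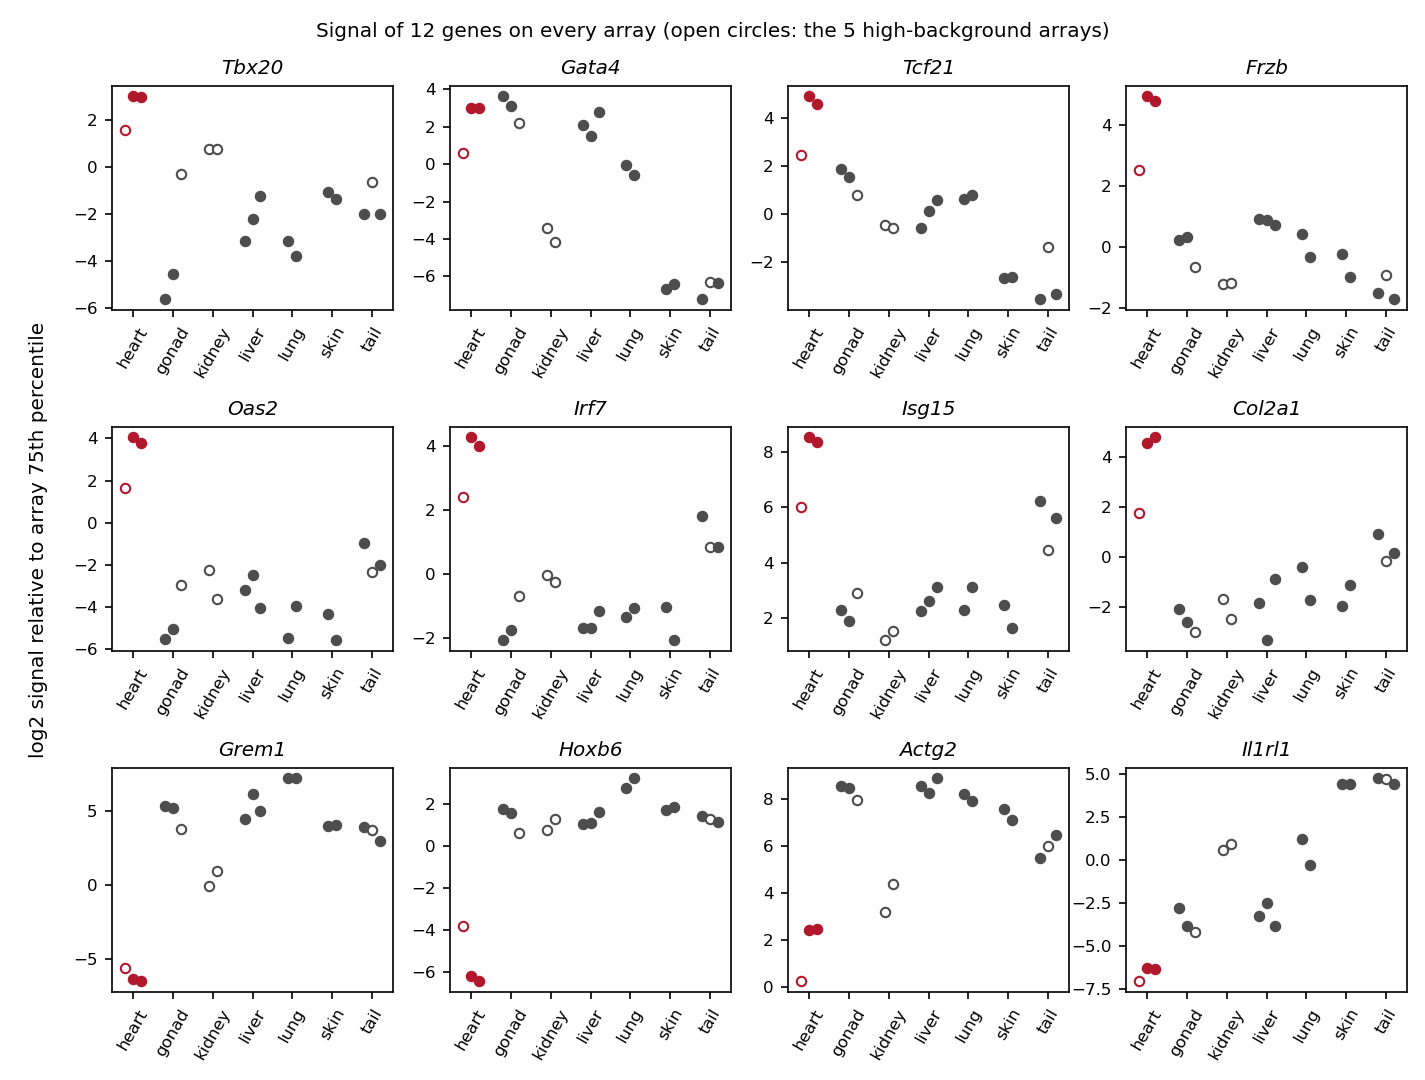
Log2 signal relative to the array's 75th percentile (y axis) is shown for 12 genes on each of 18 arrays grouped by organ (x axis), heart in red, with open circles for the 5 high-background arrays. The heart arrays lie above all others for Tbx20, Tcf21, Frzb, Oas2, Irf7 and Col2a1, among gonad and liver for Gata4, and below all others for Grem1, Hoxb6, Actg2 and Il1rl1; heart 1 lies below heart 2 and 3 for the upper genes and for Actg2.

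The interferon response held the largest group of higher genes. Of 70 measured members, 37 were higher in heart (52.9%) and 0 were lower, against 1.37% and 2.40% of all genes tested, and the median difference was 1.75. All 37 remained called without heart 1, where the counts were 44 higher and 1 lower, and 26 did without heart 2 and 26 without heart 3. The median of the list read 1.09, 2.13 and 1.77 on heart 1, 2 and 3 relative to the mean over organs, and -1.64 to 1.17 on the other arrays. Tail came nearest to heart. Against gonad 30 members were higher in heart, against kidney 47, against liver 30, against lung 25 and against skin 30, but against tail only 7, where 1 was lower. The shares of all genes called higher in these 6 comparisons were 1.32%, 16.0%, 1.07%, 0.736%, 1.00% and 1.48%. The median of the list over tail was 0.69, against 1.63 to 2.66 over the other 5 organs.

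The members that were called lay in other roles than the ligands and receptors. Of 8 measured interferon ligands and of 6 receptors and kinases 0 passed, although without heart 1 the receptors and kinases held 2 higher genes and on the 13 arrays the ligands held 1. Only 3 of the 8 ligands were well above background on all heart arrays. Ifnb1, the interferon beta gene, differed by 2.33 ± 0.77 (adjusted p = 0.162) and read -1.55, -1.73 and -3.91 in heart, within the range of the other arrays (-7.27 to -1.53), and it was called higher than in liver alone of the 6 organs (adjusted p = 0.0454). Ifnar1 and Ifnar2, the receptor chains of type I interferon, differed by -0.75 ± 0.32 and 0.14 ± 0.39. Of 7 transcription factors, 4 were higher. Irf7, the factor that amplifies type I interferon responses, read 2.41, 4.26 and 3.99, against -2.08 through -1.07 to 1.80 elsewhere, without overlap. Its difference was 4.35 ± 0.41 (adjusted p = 3.64e-05), 20.4-fold, and it was higher than in each of the 6 organs. Stat2 was higher by 2.71 ± 0.42 (adjusted p = 0.00175) and Irf9 by 1.81 ± 0.37 (adjusted p = 0.0112), both parts of the complex that binds the ISRE. Irf1, Irf3 and Irf5 differed by 0.41 ± 0.41, -0.38 ± 0.42 and -0.72 ± 0.32 and did not pass.

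Promoters of some genes called higher in heart are shown, with the ISRE letters in capitals. Whether these genes lie downstream of that complex was not tested. They were picked among genes that hold the letters, and the Irf7 entry, which holds none, is not printed. These letters are GAAA, any 2 bases and GAAA again, searched on either strand and with overlapping matches counted. The sequences are RefSeq's for build GRCm38.p6, from 250 bases before to 50 bases after the gene start, 5′ to 3′ on the gene's strand. They belong to Oas1a, Rsad2 and Ifit3, which are antiviral effectors, to Isg15, a ubiquitin-like modifier, and to Phf11b, which is higher than in each of the 6 organs but is no member of the interferon list.
Oas1a (chr5:120907476-120907775, minus strand): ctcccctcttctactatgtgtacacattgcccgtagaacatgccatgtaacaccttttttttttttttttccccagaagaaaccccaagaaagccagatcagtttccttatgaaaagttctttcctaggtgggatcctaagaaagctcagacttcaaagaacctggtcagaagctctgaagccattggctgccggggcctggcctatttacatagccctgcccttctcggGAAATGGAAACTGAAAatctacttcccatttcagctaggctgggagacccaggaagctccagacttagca
Isg15 (chr4:156200769-156201068, minus strand): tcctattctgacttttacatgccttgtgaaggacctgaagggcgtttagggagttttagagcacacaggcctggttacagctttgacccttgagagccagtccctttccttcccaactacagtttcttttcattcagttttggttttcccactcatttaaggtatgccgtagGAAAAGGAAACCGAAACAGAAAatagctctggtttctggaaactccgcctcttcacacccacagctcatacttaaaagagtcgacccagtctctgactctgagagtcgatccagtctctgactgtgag
Ifit3 (chr19:34583279-34583578, plus strand): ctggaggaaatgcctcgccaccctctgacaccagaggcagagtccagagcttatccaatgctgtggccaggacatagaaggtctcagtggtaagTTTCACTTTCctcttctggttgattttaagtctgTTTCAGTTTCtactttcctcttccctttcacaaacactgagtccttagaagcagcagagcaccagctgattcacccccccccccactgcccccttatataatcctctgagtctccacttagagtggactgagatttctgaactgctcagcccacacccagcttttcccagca
Rsad2 (chr12:26456403-26456702, minus strand): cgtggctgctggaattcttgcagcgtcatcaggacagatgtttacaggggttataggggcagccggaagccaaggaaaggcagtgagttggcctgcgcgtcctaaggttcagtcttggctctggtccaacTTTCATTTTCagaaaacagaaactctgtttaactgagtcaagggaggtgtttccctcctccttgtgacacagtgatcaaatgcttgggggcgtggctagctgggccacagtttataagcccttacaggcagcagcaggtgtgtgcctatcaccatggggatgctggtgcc
Phf11b (chr14:59341281-59341580, minus strand): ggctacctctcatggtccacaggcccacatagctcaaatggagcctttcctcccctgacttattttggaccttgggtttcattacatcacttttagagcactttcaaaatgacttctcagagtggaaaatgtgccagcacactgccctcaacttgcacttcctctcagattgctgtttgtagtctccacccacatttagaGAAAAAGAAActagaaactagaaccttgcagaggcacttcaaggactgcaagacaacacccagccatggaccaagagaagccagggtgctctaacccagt
The nearest matches begin 14 bases before the start in Oas1a, 66 in Isg15, 122 in Ifit3, 120 in Rsad2 and 50 in Phf11b. In Oas1a and Isg15 the matches overlap, and in Ifit3 and Rsad2 the letters lie on the other strand. The promoter table held 27 of the 37 called interferon genes, and 15 of the 27 (55.6%) had the letters. Of 33 members that were not called, 30 had a promoter in the table and 9 of these had the letters (30.0%). Over all tested genes with a promoter the share was 615 of 15612 (3.94%), among genes higher in heart it was 41 of 195 (21.0%), and among genes lower in heart it was 14 of 337 (4.15%). The higher genes outside the interferon and MHC class I lists held 25 of 162 (15.4%). Among these 25 were Cxcl10 and relatives of list members, such as Ifit3b, Gbp5, Gbp7, Irgm2, Trim30d and Oas1c. Related copies such as Apol9a and Apol9b counted separately. This share is therefore not one of genes unrelated to interferon. The longer form, in which CT follows the second GAAA and which is a subset of the first, were in 23 of the 195 higher genes (11.8%), in 0 of the 337 lower genes and in 55 of 15612 tested (0.352%). These are matches of letters in a window and no evidence of binding.

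Sensors and effectors carried the largest differences. Oas2, an enzyme that makes the 2-5A messenger on sensing double-stranded RNA, read 1.65, 4.06 and 3.77 in heart, and from -5.58 through -3.60 to -0.95 elsewhere. Its lowest heart array lay above the brightest tail array, and the difference was 6.84 ± 0.63 (adjusted p = 3.38e-05), at least 113-fold, since in 1 organ the probe was not well above background. Oas1a, an enzyme of the same family whose promoter is printed above, read 3.52, 6.05 and 5.63, against -4.86 through -0.85 to 2.11, a difference of 5.89 ± 0.66 (adjusted p = 0.000136). Zbp1, a sensor of Z-form nucleic acid, read 2.22, 4.58 and 4.12, against -5.30 through -1.82 to 0.96, a difference of 5.997 ± 0.60 (adjusted p = 6.09e-05). These genes were higher in heart than in each of the 6 organs, and without heart 1 their differences were 7.59, 6.67 and 6.71. Of 10 nucleic acid sensors 6 were higher, among them Dhx58 at 3.12 ± 0.48, Ifih1 at 2.94 ± 0.39 and Ddx58 at 2.08 ± 0.38, the RNA helicase sensors. Cgas, Sting1 and Mavs, of the DNA-sensing and adaptor steps, differed by 0.55 ± 0.39, 0.23 ± 0.42 and -0.39 ± 0.42 and did not pass.

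Of 32 antiviral effectors, 23 were higher, and their role median was 2.83. Ifit3 read 3.56, 5.79 and 5.40 in heart, against -2.86 through -0.82 to 3.99, so heart 1 overlapped with tail, and the difference was 5.18 ± 0.53 (adjusted p = 7.07e-05). Bst2, the tether that holds virions at the cell surface, read 4.87, 7.34 and 7.35, against 1.02 through 2.30 to 5.16, with heart 1 again inside the tail range. It was higher by 4.07 ± 0.45 (adjusted p = 0.000119). The members that did not pass included Ifitm1, Ifitm2 and Ifitm3, the membrane proteins that block viral entry, at -0.09 ± 0.41, -0.06 ± 0.49 and 1.36 ± 0.49, and Ifi27 at -1.18 ± 0.41, the 1 member lower in heart than in tail. Of 7 genes of the ISG15 system and its regulators, 4 were higher. Isg15 read 6.02, 8.54 and 8.36, against 1.19 through 2.46 to 6.22, with overlap between heart 1 and tail 1, and the difference was 4.88 ± 0.50 (adjusted p = 6.67e-05). Usp18, which removes ISG15 and restrains the receptor, was higher by 5.20 ± 0.49 (adjusted p = 3.64e-05), and Uba7 and Ube2l6, the enzymes that attach ISG15, by 3.23 ± 0.42 and 2.31 ± 0.38. Socs1 and Socs3, feedback inhibitors of cytokine receptors, differed by -0.04 ± 0.36 and -0.19 ± 0.41. Ifit3 and Ifit3b, and the Oas1 genes, are near-identical copies, so the split of signal among them is uncertain.

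Genes of antigen presentation by MHC class I were higher in part. Of 15 members 7 were higher, 0 were lower and the median was 1.26. Nlrc5, the transactivator of class I genes, differed by 3.13 ± 0.62 (adjusted p = 0.00900), Psmb8 and Psmb9, subunits of the immunoproteasome, by 2.64 ± 0.41 (adjusted p = 0.00158) and 2.55 ± 0.35 (adjusted p = 0.000642), and Tap1, the peptide transporter, by 2.29 ± 0.37 (adjusted p = 0.00240). Psmb9 read 0.58, 2.29 and 2.06 in heart, against -2.37 through -0.96 to 1.60, with heart 1 inside the tail range. Against tail, 0 of the 15 were higher in heart, and the median over tail was 0.26. Without heart 1 the list held 12 higher members and without heart 2 or heart 3 it kept 3 of its 7 calls. The median of the list read -0.12 on heart 1 and 1.80 and 1.85 on heart 2 and heart 3.

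**Figure D3:**
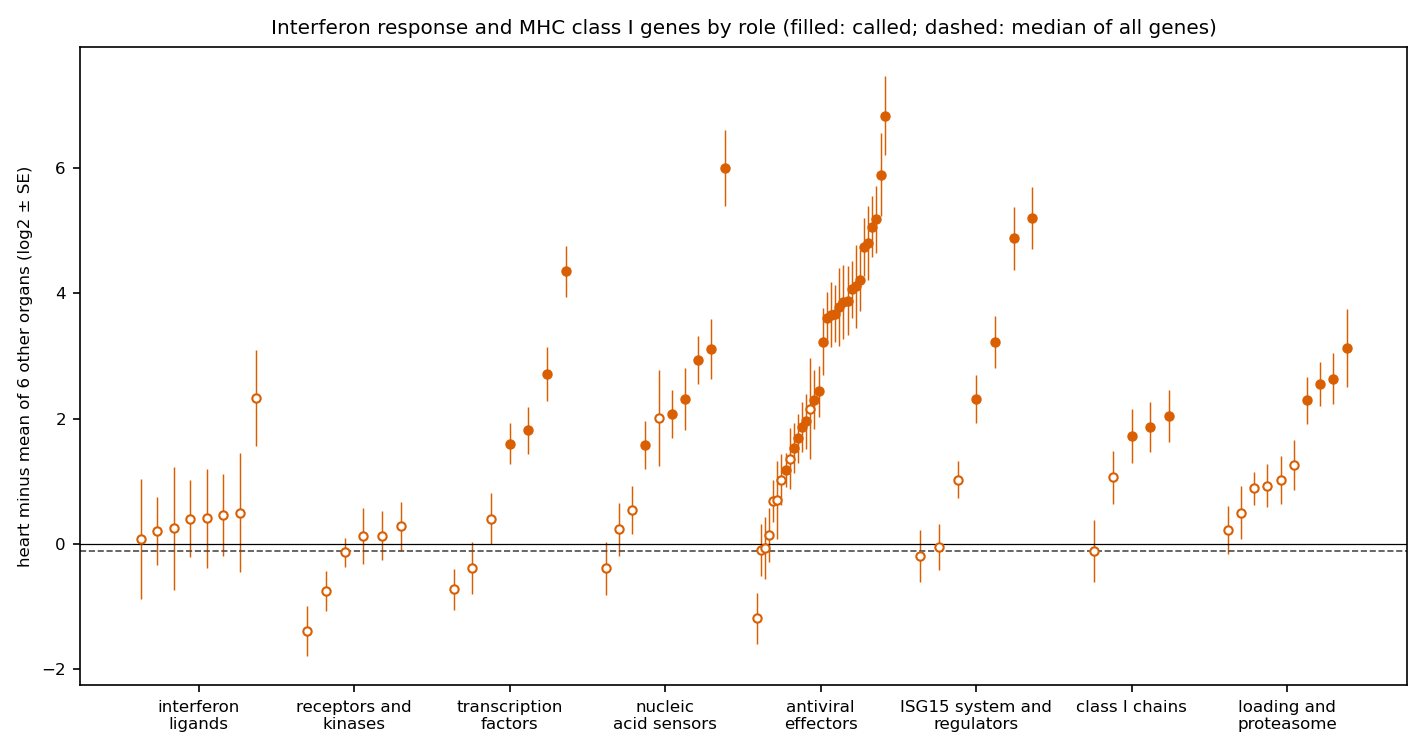
Each point is 1 gene, grouped on the x axis by role, with the log2 difference of heart from the mean of 6 other organs ± SE on the y axis; filled points are called and the dashed line is the median of all genes (-0.11). None of 8 ligands and 6 receptors and kinases is called, against 4 of 7 transcription factors, 6 of 10 sensors, 23 of 32 effectors and 7 of 15 class I genes.

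Chemokine genes differed singly. Cxcl10, an attractant of T cells that interferon induces, read 0.10, 2.57 and 2.79 in heart, against -3.45 through -1.28 to -0.03, and was higher by 3.13 ± 0.58 (adjusted p = 0.00582). Ccl5, another T cell attractant, read 0.80, 3.24 and 2.90, against -1.37 through -0.42 to 0.72, and was higher by 2.85 ± 0.41 (adjusted p = 0.00108). Both lay above all other arrays. Cxcl5, which attracts neutrophils, differed by 4.86 ± 1.06 (adjusted p = 0.0171), but skin at a mean of 6.42 was above heart. Cxcl14, a chemokine of skin and other epithelia, was lower by -2.80 ± 0.51 (adjusted p = 0.00508). Of 17 chemokines 3 were higher and 1 was lower, with a median of 0.09, and Ccl2, Ccl7 and Cxcl12 were not called. Of these 4 calls 2 remained without heart 2 or heart 3.

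The opposite pattern was seen in the Hox genes. Of 35 measured, 17 were lower in heart and 0 were higher, against 2.40% and 1.37% of all genes tested. Without heart 1 the count of lower genes was 28, against 4.88% of all genes. Group 1 to 4 genes held 7 lower of 11, with a median of -2.44, group 5 to 8 genes held 7 lower of 10, with a median of -4.24, and group 9 to 13 genes held 3 lower of 14, with a median of -1.43. Hoxb6 read -3.81, -6.18 and -6.43 in heart, against 0.62 through 1.42 to 3.23 elsewhere, and Hoxb7 read -3.92, -6.18 and -6.44, against 0.27 through 1.59 to 2.36. No heart array came within 4 log2 units of the dimmest other array for either gene. Their differences were -7.08 ± 0.44 and -6.99 ± 0.44 (adjusted p = 8.62e-07 for each), and both were well above background on 1 of the 3 heart arrays. Hoxc6 differed by -6.41 ± 0.58 (adjusted p = 3.06e-05), Hoxa3 by -4.76 ± 0.32 (adjusted p = 1.59e-06) and Hoxb9 by -5.43 ± 0.62 (adjusted p = 0.000157). Neither Hoxc6 nor Hoxb9 was well above background on all 3 heart arrays, so their sizes, like those of Hoxb6 and Hoxb7, are uncertain. Hoxa3 was well above background on all 3 heart arrays, at -4.19, -3.67 and -2.998, against -2.01 through 0.83 to 3.68.

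By cluster, in the HoxB cluster 3 of 3 group 1 to 4 genes and 4 of 4 group 5 to 8 genes were lower, in HoxA 3 of 4 and 2 of 3, and in HoxC 1 of 1 and 1 of 2. None of 8 HoxD genes passed, with values from -2.15 ± 0.92 for Hoxd4 to 0.33 ± 0.76 for Hoxd11, and a difference between the clusters was not tested. Heart 1 lay apart in these genes: the median of the HoxD genes of groups 1 to 4 read 2.53 on heart 1 and -2.04 and -2.42 on heart 2 and heart 3, and that of groups 9 to 13 read 2.32, -1.54 and -2.81. Without heart 1, 1 of 3 and 2 of 4 of them were lower. Hoxd8 was called higher in heart than in tail, by 2.59 ± 0.64 (adjusted p = 0.0305). Hoxb2 was among the less changed of the called genes, at -1.92 ± 0.26, and was well above background on all heart arrays. Of the 17 called genes, 8 were lower than in each of the 6 organs (Hoxa3, Hoxa7, Hoxb3, Hoxb4, Hoxb6, Hoxb7, Hoxc4 and Hoxc6). Genes of groups 9 to 13 were not called against liver or lung, where 0 of 14 differed, while 5 were lower than in gonad, 4 than in kidney, 3 than in skin and 6 than in tail. The shares of all genes lower in heart in these comparisons were 2.67% for liver, 1.82% for lung, 2.95% for gonad, 2.68% for kidney, 1.71% for skin and 3.34% for tail. On heart 1 the median of these genes read 1.74, above heart 2 and heart 3 at -2.12 and -3.03, and without heart 1 the count of lower genes was 10 of 14. Of the Hox cofactors of the Meis, Pbx and Pknox families 0 of 9 were called, with a median of -0.21, while without heart 1 the median was 0.52 and 1 was higher.

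**Figure D4:**
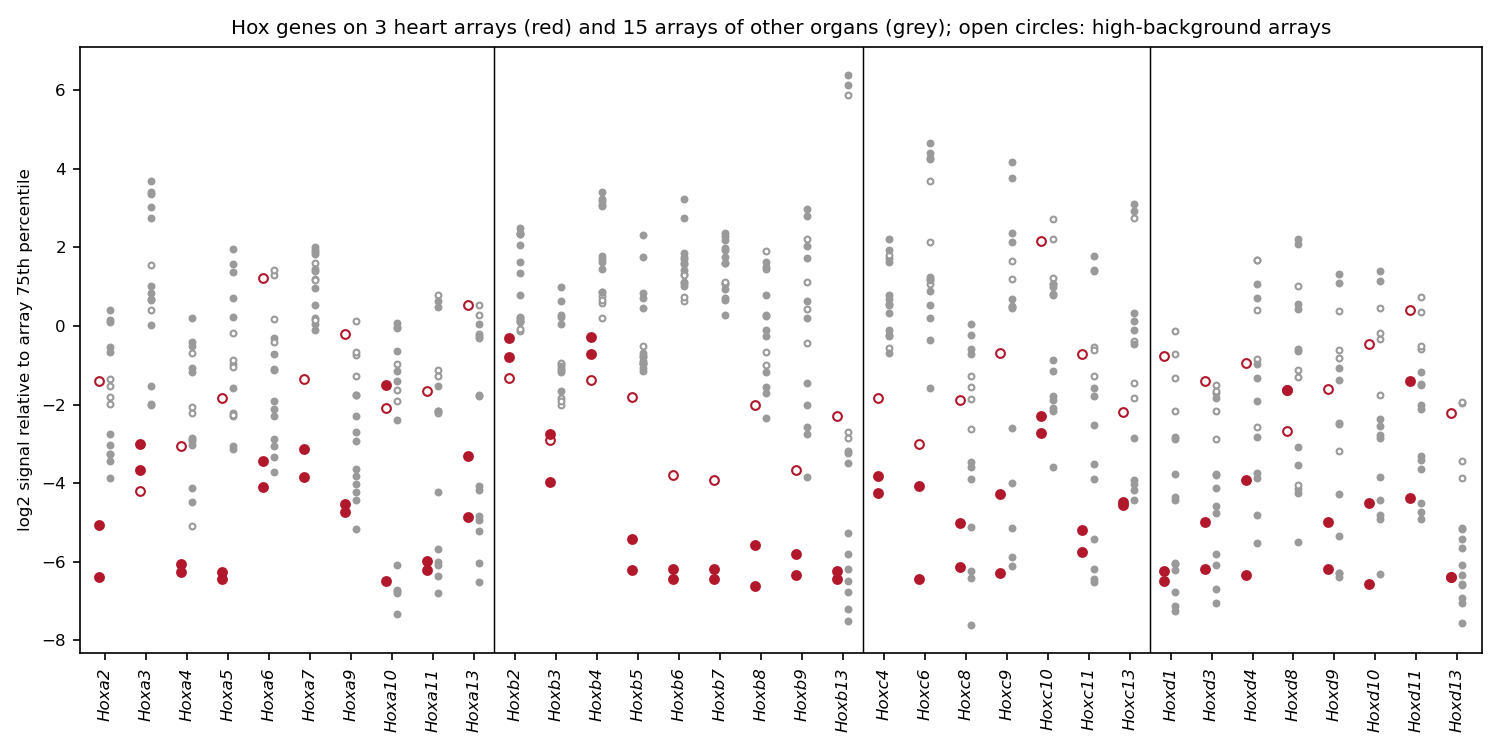
Log2 signal relative to the array's 75th percentile (y axis) is shown for 34 Hox genes ordered by cluster and group (x axis), red for the 3 heart arrays and grey for the 15 others, with open circles for high-background arrays. All heart arrays lie below all others for Hoxa3, Hoxa7, Hoxb2 to Hoxb7, Hoxc4 and Hoxc6, by over 4 units for Hoxb6 and Hoxb7, and the open heart 1 circle lies above heart 2 and 3 for 28 of the 34 genes.

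Of 26 other factors of trunk and limb mesenchyme 1 was higher and 4 were lower, with a median of -0.38, and on the 13 arrays 2 were higher and 8 lower. Without heart 2 or heart 3 the list kept 3 of its 5 calls. Msx2, a homeobox factor of limb and skull that BMP induces, read -2.87, -4.65 and -3.84 in heart, against -2.62 through -0.99 to 0.35, a difference of -2.76 ± 0.38 (adjusted p = 0.000664). Foxf2, a forkhead factor of gut and lung mesenchyme, differed by -2.01 ± 0.38 (adjusted p = 0.00660), and Emx2, a urogenital and limb girdle factor, by -1.81 ± 0.38 (adjusted p = 0.0119). Six2, a homeobox factor of kidney progenitors, was higher by 3.32 ± 0.84 (adjusted p = 0.0417), at least 9.35-fold, but lost the call in 18 of 32 other settings, and its other probe gave 0.88.

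Contractile genes were lower in part. Of 21 members 8 were lower and 1 was higher, against 2.40% and 1.37% of all genes tested, with a median of -1.39. Without heart 1 the same counts came with a median of -0.68, beside larger shares of all genes, 4.88% lower and 5.61% higher. The list read -2.28 on heart 1 and -0.45 and -0.52 on heart 2 and heart 3, the last pair inside the range of the other arrays. Actg2, the enteric smooth muscle actin, read 0.22, 2.42 and 2.45 in heart, against 3.16 through 7.89 to 8.88, without overlap, and the difference was -5.30 ± 0.43 (adjusted p = 1.1e-05). Cnn1, the actin-binding protein calponin, read 1.21, 3.47 and 3.18, against 4.28 through 7.99 to 8.69, a difference of -4.78 ± 0.41 (adjusted p = 1.71e-05). Both were lower than in each of the 6 organs. Mylk, myosin light chain kinase, differed by -4.01 ± 0.30 (adjusted p = 4.58e-06), and Myh11, the smooth muscle myosin heavy chain, by -4.09 ± 0.44 (adjusted p = 0.000102). Actc1, the actin of heart muscle, was not well above background on any heart array and at least 4.25-fold lower (adjusted p = 0.000108).

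The bright contractile markers of myofibroblasts did not differ by this test. Acta2, smooth muscle alpha actin, read 6.63, 9.08 and 8.93 in heart, against 6.13 through 9.44 to 9.72, a difference of -0.75 ± 0.42 and of 0.04 without heart 1. Tagln, an early smooth muscle protein, differed by -0.58 ± 0.42. Heart 2 and heart 3 lay inside the range of the other organs for both. Pdlim3, a Z-disc adaptor protein, went the other way, at 2.52, 4.67 and 4.84 in heart, against -3.51 through -1.03 to 2.25, a difference of 4.66 ± 0.48 (adjusted p = 7.23e-05). Its relative Pdlim4 read -4.03, -4.13 and -2.82, against 1.13 through 3.61 to 4.82, a difference of -6.79 ± 0.44 (adjusted p = 1.21e-06). Acta1, the skeletal actin, was called at -1.82 ± 0.43 but not without heart 1 (-1.42, adjusted p = 0.0574). The regulators Srf, Myocd, Mrtfa and Mrtfb differed by -1.22 to -0.26 and none passed. The CArG box, CC followed by 6 bases of A or T and GG, to which SRF binds, was found in the promoters of 4 of 17 members (Actc1, Acta1, Myl9 and Srf), against 1.74% of tested genes and 15 of 337 genes lower in heart (4.45%).

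A BMP antagonist held the largest difference of the whole comparison, and of 29 BMP pathway genes 2 were higher and 4 lower, against 6 and 5 without heart 1. Without heart 2 or heart 3 the list kept 4 of its 6 calls. Grem1, gremlin 1, read -5.61, -6.37 and -6.54 in heart, not well above background on any heart array, and from -0.11 through 4.08 to 7.22 elsewhere. It was at least 397-fold lower in heart (log2 difference -10.37 ± 0.41, adjusted p = 1.36e-08). The probe was well above background on all 15 other arrays, without overlap. Fst, follistatin, which binds activins and BMPs, was lower by -3.11 ± 0.38 (adjusted p = 0.000285). Of 11 secreted antagonists measured, 3 were lower and 0 higher, and those that did not pass included Nog, noggin, at -0.10 ± 0.35 and Chrd, chordin, at -0.52 ± 0.72. Among 8 ligands, Gdf6 was higher by 3.80 ± 0.48 (adjusted p = 0.000383) and Bmp6 by 2.56 ± 0.48 (adjusted p = 0.00643), while Bmp4 differed by 0.34 ± 0.52. Of 10 receptors and targets only Bmpr1b passed, at -2.27 ± 0.50 (adjusted p = 0.0187), and the target genes Id1, Id2 and Id3 differed by 0.39 ± 0.46, 0.20 ± 0.42 and 0.86 ± 0.44.

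Of 37 Wnt pathway genes 8 were lower and 3 higher, with a median of -0.79, beside 472 lower and 270 higher of all genes. Without heart 1 the counts were 15 lower and 6 higher, and the list kept 7 of its 11 calls without heart 2 and 8 without heart 3. The secreted antagonists parted. Frzb, a decoy receptor for Wnt ligands, read 2.52, 4.96 and 4.80 in heart, against -1.73 through -0.35 to 0.93, above all other arrays by over 1 log2 unit. Its difference was 4.49 ± 0.44 (adjusted p = 4.53e-05), 22.5-fold, and Sfrp1, of the same family, was higher by 2.15 ± 0.45 (adjusted p = 0.0119). Dkk2 and Dkk3, of the dickkopf family, were lower by -3.16 ± 0.49 (adjusted p = 0.00162) and -2.66 ± 0.36 (adjusted p = 0.000674), with heart 2 and heart 3 inside the range of the other arrays. Rspo1 and Rspo3, which enhance Wnt signals, were lower by -2.61 ± 0.34 (adjusted p = 0.000420) and -2.59 ± 0.50 (adjusted p = 0.00740). Among 10 ligands only Wnt4 passed, at -2.35 ± 0.44 (adjusted p = 0.00593). Of the targets Apcdd1 was higher by 2.39 ± 0.40 and Nkd1 lower by -1.41 ± 0.34, while Axin2 differed by -0.22 ± 0.84.

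Receptor and peptide genes outside these pathways were among the lowest. Cck, which encodes cholecystokinin, read -2.72, -2.36 and -1.93 in heart, against 3.09 through 5.37 to 8.14, a difference of -8.24 ± 0.48 (adjusted p = 4.21e-07), 302-fold. Il1rl1, the receptor of interleukin-33, read -7.06, -6.28 and -6.36, not well above background in heart, against -4.21 through 0.56 to 4.76, and was at least 32.2-fold lower (adjusted p = 2.25e-07). Its other probes gave -5.31 to -0.99, so its probes agreed in direction and not in size. Il33, its ligand, differed by 1.03 ± 0.57 and did not pass. Il11, a profibrotic cytokine, read -3.05, -1.52 and -1.76, against -0.88 through 0.75 to 5.53, a difference of -3.69 ± 0.44 (adjusted p = 0.000206). Of 15 genes of the interleukin 1, 33 and 6 families these 2 were lower and 0 were higher, against 2 lower and 6 higher without heart 1. Cd24a, a surface sialoglycoprotein, differed by -6.48 ± 0.58 (adjusted p = 2.84e-05), and Bves, a Popeye-domain membrane protein known from striated muscle and epithelia, by -5.98 ± 0.41 (adjusted p = 1.97e-06). Adgrg1, an adhesion receptor, differed by -4.75 ± 0.33, and Serpinb2, an inhibitor of plasminogen activators, was at least 5.27-fold lower. Pparg, the adipogenic nuclear receptor, was lower by -1.66 ± 0.24 (adjusted p = 0.000874), at 0.33, -0.21 and 0.13 against 1.13 through 1.64 to 2.60.

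Matrix genes differed in a few members. Col2a1, the collagen of cartilage and embryonic valve tissue, read 1.77, 4.56 and 4.82 in heart, against -3.36 through -1.72 to 0.94, a difference of 5.22 ± 0.61 (adjusted p = 0.000181), higher than in each of the 6 organs. Sox9, the factor that drives Col2a1 in cartilage, read 0.77, 3.32 and 3.58, against -1.88 through -0.17 to 1.02, a difference of 2.84 ± 0.48 (adjusted p = 0.00295). The other 11 cartilage genes measured did not pass (2 of the 18 cartilage and tendon genes were lower without heart 1), among them Acan at -0.48 ± 0.67, Col11a1 at 0.29 ± 0.45 and Col9a1 at -0.16 ± 0.94. Fndc1, a fibronectin-domain protein, was higher by 4.89 ± 0.45 (adjusted p = 3.31e-05), at 4.44, 6.74 and 6.72 against -2.16 through 1.097 to 4.08. Lum, the proteoglycan lumican, was higher by 4.28 ± 0.67 (adjusted p = 0.00187), and the 10 small leucine-rich proteoglycans had a median of 1.49, with 2 called, against 6 without heart 1 and 6 on the 13 arrays. Of 11 basement membrane genes 1 was higher and 2 were lower, against 8 and 2 without heart 1. Of laminin genes, Lama4 was higher by 2.11 ± 0.42 (adjusted p = 0.00940), though not within slide 2, and Lama1 and Lama5 were lower by -1.95 ± 0.35 (adjusted p = 0.00464) and -2.14 ± 0.43 (adjusted p = 0.00946). Lama1 was lower than in gonad, liver and skin, but higher than in tail by 1.89 ± 0.45 (adjusted p = 0.0245). Lama5 was lower than in gonad, liver and lung, and differed by -0.22 ± 0.61 from skin and -0.50 ± 0.55 from tail. None of 18 matrix proteases and inhibitors passed, where Mmp3 differed by 3.13 ± 0.93 (adjusted p = 0.0954), and of 14 activated fibroblast genes only Thbs1 did, at -1.85 ± 0.44. Without heart 1 the protease list held 5 higher and 2 lower genes, with a median of 0.58 in place of -0.19, and the activated fibroblast list held 3 higher and 1 lower, with a median of 0.69 in place of -0.15.

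Steroid, retinoid and complement genes were higher where called. Hsd11b1, which regenerates active glucocorticoid, read 3.51, 6.10 and 5.54 in heart, against -1.74 through 0.10 to 1.45, a difference of 5.07 ± 0.63 (adjusted p = 0.000301). No other of the 7 glucocorticoid genes passed, and the glucocorticoid targets Fkbp5, Per1 and Tsc22d3 differed by -0.14 ± 0.28, -0.07 ± 0.40 and -0.76 ± 0.40. Aldh1a1, a second retinaldehyde dehydrogenase, was higher by 3.06 ± 0.52 (adjusted p = 0.00298), although gonad was above heart. Of 12 retinoid genes 4 were higher, and the retinoid and steroid list kept 2 of its 5 calls without heart 2 or heart 3. The targets Rarb and Cyp26b1 differed by 0.44 ± 0.78 and -0.89 ± 0.49. Among 13 complement genes 4 were higher, among them Serping1, the C1 inhibitor, by 2.24 ± 0.45 (adjusted p = 0.00974) and C3 by 2.21 ± 0.51 (adjusted p = 0.0243). Kidney had the lowest mean for C3, Serping1 and Aldh1a1, and 1 of the 4 complement calls remained without heart 2 and 1 without heart 3, while without heart 1 the counts were 5 higher and 1 lower. Serpind1, heparin cofactor II, was at least 23.6-fold higher (adjusted p = 0.000124), above all other arrays. Other genes whose heart arrays lay above all others were Wfdc18, a whey acidic protein family member, at 5.17 ± 0.53, Olfml1, an olfactomedin-like secreted protein, at 4.68 ± 0.80, and Adamtsl2, a matrix protein that binds fibrillin, at 4.57 ± 0.58.

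Imprinted and growth genes were lower in part, 5 of 21, with 1 higher, against 5 and 3 without heart 1. Dlk1, a paternally expressed inhibitor of differentiation, read -2.71, -0.37 and -0.42 in heart, against -2.58 through 3.10 to 5.31, a difference of -3.68 ± 0.74 (adjusted p = 0.00974). Plagl1, a paternally expressed zinc-finger factor, differed by -2.90 ± 0.47 (adjusted p = 0.00238), and Igfbp6, which binds IGF2, by -3.10 ± 0.43 (adjusted p = 0.000823). Peg10 was higher, at -0.82, 1.21 and 0.36, against -2.65 through -2.08 to -0.75, by 2.22 ± 0.33 (adjusted p = 0.00109). Rhox5, an X-linked homeobox gene of the reproductive tract, read 3.48, 5.64 and 5.54, against -1.78 through -0.31 to 1.46, a difference of 5.06 ± 0.46 (adjusted p = 3.06e-05). The other 6 germline genes did not pass. Cdkn2a and Cdkn2b, the cell cycle inhibitors of culture-aged cells, were lower by -1.76 ± 0.35 (adjusted p = 0.00967) and -1.96 ± 0.42 (adjusted p = 0.0161), while 0 of 13 proliferation genes passed and Mki67 differed by 0.24 ± 0.41. Without heart 1, 5 of the 13 were higher, with a median of 1.00 in place of 0.44.

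Markers of other cells that a heart digest can hold were counted in the same comparison. Of all genes tested 1.37% were higher and 2.40% lower, and without heart 1 these shares were 5.61% and 4.88%. No call in a list of 7 or 13 markers lies near those shares. In such bulk cultures fewer cells of a type and less RNA per cell cannot be told apart. None of 13 cardiomyocyte markers was called, and without heart 1 2 were lower. Myh6, a myosin heavy chain of heart muscle, read 0.03, -3.77 and -3.87 in heart, against -6.19 to 0.74 elsewhere, and Tnnt2, cardiac troponin T, read 1.38, 2.71 and 2.11, against -3.32 to 5.10. The cardiomyocyte list read 2.34 on heart 1 and -0.96 and -1.50 on heart 2 and heart 3, inside the range of the other arrays (-1.70 to 2.24) except for heart 1. Of 11 macrophage markers 1 was lower (Cd14, at -1.68 ± 0.39) and 0 higher, and of 7 lymphocyte markers 0 were called. Ptprc, the common leukocyte antigen, read -0.56, -3.66 and -4.54, against -6.51 to -0.52. The macrophage list read 1.30, -1.31 and -1.55 on heart 1, 2 and 3, against -2.38 to 2.86 on the other arrays.

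Mesothelial and epicardial markers, which include keratins and the factor Wt1, were lower in 6 of 11, against 2.40% of all genes tested. Their median was -2.87. Without heart 1 the count was 8, against 4.88% of all genes, and 2 of the 6 calls remained without heart 2 and 3 without heart 3. Krt18, a simple-epithelial keratin, read 0.10, -1.96 and -3.16 in heart, against -1.96 through 2.75 to 6.24, a difference of -4.67 ± 0.63 (adjusted p = 0.000631), and its partner Krt8 differed by -4.21 ± 0.80 (adjusted p = 0.00666). Msln, mesothelin, differed by -3.15 ± 0.83 (adjusted p = 0.0535). This list was at the heart level in skin and tail, where the medians over them were 0.00 and 0.24, and above it in gonad, kidney, liver and lung. Of 16 endothelial markers 3 were lower (Cdh5, Plvap and Emcn) and 1 was higher (Tek, at 1.87 ± 0.45, adjusted p = 0.0314), while Pecam1 differed by -0.73 ± 0.53. Of these markers 7 were lower than in gonad, 7 than in liver and 2 than in kidney, but 0 than in lung, skin or tail. The shares of all genes lower were 2.95%, 2.67% and 2.68%, and 1.82%, 1.71% and 3.34%, in the same order. The median of the list over tail was 0.53. Without heart 1 the endothelial counts were 6 lower and 2 higher, and 1 of the 4 calls remained without heart 2 or heart 3. Cspg4, the pericyte proteoglycan NG2, read -1.38, -0.86 and -1.76, against 1.03 through 2.55 to 4.71, a difference of -4.03 ± 0.34 (adjusted p = 1.66e-05), and the other 7 pericyte markers were not called (1 was higher without heart 1). Ngfr, a neurotrophin receptor of neural crest derivatives, was higher by 2.77 ± 0.60 (adjusted p = 0.0162), and Sox10, a defining Schwann marker, differed by -0.27 ± 0.75. The part of these cells in the differences above was not tested.

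**Figure D5:**
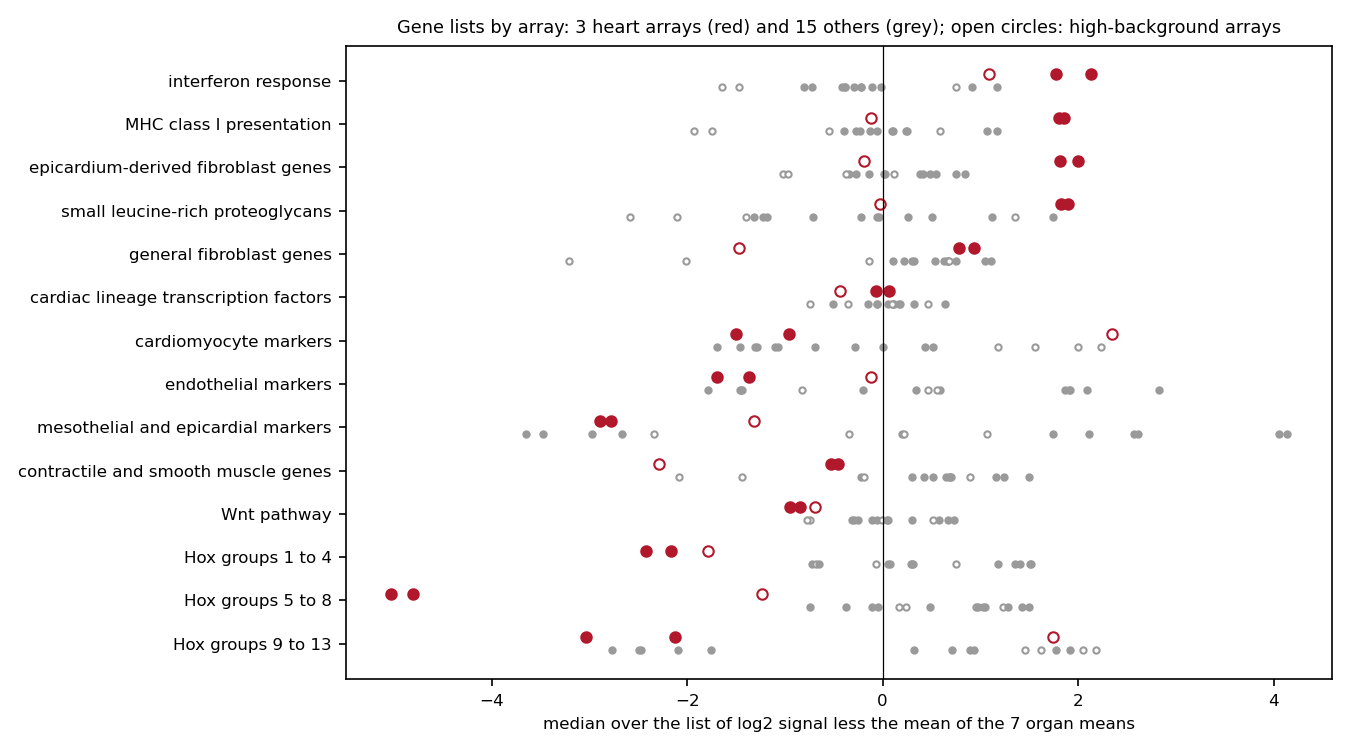
For 14 gene lists (y axis) the x axis shows, for each array, the median over the list of the log2 signal less the mean of the 7 organ means; red circles are the 3 heart arrays, grey circles the 15 others, and open circles the high-background arrays. The heart arrays lie apart from all others for Hox groups 1 to 4 and 5 to 8, heart 2 and 3 but not heart 1 lie above all others for the interferon and MHC class I lists, and heart 1 departs from heart 2 and 3 in most lists.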

How the data were processed

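Fibroblast RNA was hybridised to 1-colour mouse arrays. The spot intensities are those of Agilent Feature Extraction 11.0.1.1, which subtracted background, per the file headers; its deposited flags (0 or 1) mark spots well above background. From these, log2 processed intensity less the array's 75th percentile was computed. Each gene took its brightest complete probe, kept where well above background on at least 2 arrays. Organ means were fitted with limma 3.58.1 in R 4.3.3 (11 residual degrees of freedom), with Benjamini-Hochberg adjustment over 19703 genes, after the script was tested on simulated data. Adjusted p-values are limma's. "At least" folds are bounds against background. Probes without a gene symbol (28452 of 55681) are unnamed here. The members and the 38 gene lists were chosen with earlier results of these data known. The genes named are the 15 higher and 15 lower with the largest differences among called genes whose heart arrays lay beyond all others and which were also called without heart 1, up to 4 called members a list, and the markers Tbx20, Tcf21, Oas2 and Frzb; other list members were named after their values were seen. The alternatives were normalization, probe filter, probe choice, slide and replicate blocks, the deposited value table, and leaving out arrays. Some genes that the rule names are not reported here, though they count in the totals.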

Additional observations from a re-analysis of the deposited data

How the results depend on the processing

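The 742 calls became 428 at an adjusted p under 0.01, 1117 with background as a term, 1643 on the 13 arrays without high background and 1130 there with normexp and quantile normalization, and leaving out 1 array gave 448 to 2068. Genes higher in heart became 437 with quantile normalization, 407 with scaling to the median of detected probes, 164 at 0.01, 439 with background as a term, and 672 and 547 on the 13 arrays, with 129 to 1106 when 1 array was left out. Genes lower in heart became 264 at 0.01 and 971 on the 13 arrays, with 313 to 962 when 1 array was left out. Genes higher than in each organ became 78 with quantile normalization, 90 with normexp, 48 with median scaling, 32 where every array had to be above background, 52 in the deposited value table, 29 with a variance trend, 4 at 0.01, 34 with background as a term, and 166 and 179 on the 13 arrays, with 4 to 142 when 1 array was left out. Genes lower than in each organ became 18 at 0.01 and 179 and 113 on the 13 arrays, with 17 to 108 when 1 array was left out. The 13 arrays include no kidney array, so every count on them compares heart with fewer organs than the main counts do. The share of calls that were higher was 36.4%, against 46.0% with quantile normalization, 53.5% without heart 1 and 48.4% on the 13 arrays with normexp. None of the 742 genes was called in the opposite direction in any of these settings, and the cause of the shifts was not tested.

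Within slide 2, Lama4, Serping1 and Gfpt2 reversed, at -0.11, -0.12 and -0.28. With the replicate number as a block 633 genes were called, 626 of them among the 742. Same-numbered samples of different organs had deviations that correlated from -0.85 to 0.78, so the numbers were not taken to pair samples. Lower genes that were not well above background on any heart array have only a bound. Those dim on some heart arrays have no bound, and their sizes are uncertain. The number of arrays limits the precision, and heart 1 with its high background weighs as 1 of 3.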
